A study of Mus musculus with 8 samples.

Results

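The genes described here are 40 G2/M and mitotic spindle genes, chosen by name from the 24454 genes of the tables because they encode the cyclins, kinases, checkpoint proteins, kinetochore parts, motors and cytokinesis factors that take a cell through mitosis. Every one of the 40 was found by its mouse Entrez Gene number, and all 40 passed the filter on low values described below. Their transcripts were measured by RNA sequencing in 8 libraries of cultured 4T1 cells, which derive from a mouse mammary tumour and spread from it when grafted. Every cell population had been infected with a lentivirus carrying a short hairpin RNA and selected with puromycin, the controls included. The hairpin was the non-targeting control in 3 libraries (shCTRL), was directed against mouse MEK5 in 2 libraries (shMEK5, hairpin 2 in the titles) and against mouse ERK5 in 3 libraries (shERK5, hairpin 1 in the titles). With 1 hairpin for each target, an effect of the target and an effect of that hairpin on other transcripts cannot be told apart. Whether replicates were separate cultures is not stated in the labels, and the p-values therefore reflect the spread among these libraries alone, which may be technical.

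Entry into mitosis is driven by the kinase CDK1 bound to cyclin A or cyclin B, and exit by the anaphase-promoting complex, a ubiquitin ligase that with its activator CDC20 marks cyclin B and securin for destruction. Between these steps the spindle checkpoint holds the cell until each kinetochore, the protein plate on the centromere, is attached to spindle microtubules. Most of these genes are transcribed late in the cell cycle, so their mRNA is abundant in dividing cultures and low in resting cells. MEK5 is the kinase that phosphorylates and activates ERK5. The study asked how the pair bears on breast cancer cells, and the comparisons below ask what its depletion was accompanied by among the mitotic transcripts. In RNA from whole cultures, fewer cells in G2 and mitosis and less mRNA per such cell cannot be told apart.

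Levels are given as CPM, the reads of a gene for every 1000000 that fell in genes. The libraries held from 41397315 to 53714288 such reads, which makes a single read equal to 0.0186 to 0.0242 CPM. The transcript of each target was low in the libraries of its hairpin: Map2k5, encoding MEK5, was at 14.1 and 14.4 CPM in shMEK5 and between 35.2 and 37.1 CPM in the other 6 libraries, and Mapk7, encoding ERK5, lay between 6.33 and 6.66 CPM in shERK5 and at 18.7 CPM or more elsewhere. Mapk7 was also lower in shMEK5, at 20.4 and 18.7 CPM beside 25.6, 28.6 and 26.1 CPM in shCTRL (-0.44, SE 0.08, limma adjusted p = 0.000923). The 6 epithelial markers Epcam, Cdh1, Krt7, Krt8, Krt18 and Krt19 were all expressed, with a summed level of 1761 to 1949 CPM in shCTRL, 1330 and 1394 CPM in shMEK5 and 1578 to 1629 CPM in shERK5. Against shCTRL, 4 of the 6 were higher in shERK5, by limma log2 differences of 1.56 for Cdh1 (SE 0.06), 1.06 for Epcam (SE 0.09), 1.02 for Krt19 (SE 0.05) and 0.75 for Krt7 (SE 0.05), and Krt8 and Krt18 were lower, each at -0.52 (SE 0.05 and 0.06). The part of these shifts in the mitotic results was not tested. Of the leukocyte markers, Cd3e and Adgre1 were at 0 in every library, and the sum lay between 1.88 and 3.67 CPM, nearly all of it Cd68. Of 6 fibroblast markers, Dcn, Lum and Thy1 were at 0 in every library, and the sum, mostly Pdgfra, lay between 31.6 and 47.2 CPM in shCTRL, at 34.2 and 35.8 CPM in shMEK5 and between 22.8 and 28.2 CPM in shERK5. Pdgfra was lower in shERK5 than in shCTRL (-0.48, SE 0.14, limma adjusted p = 0.0180), as were the mitotic genes below, and its part in their change was not tested. The sum of 4 endothelial markers was 0.362 CPM or less in each library, with Kdr at 0 throughout.

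Mitotic transcripts were lower in shERK5 than in shCTRL across all the functional groups. Log2 fold changes here are differences between group means of log2(CPM + 1), tested with limma, and a gene is said to rise or fall where the p-value adjusted over all 11623 tested genes was under 0.05. In shERK5, 38 of the 40 genes fell and 0 rose, while 31.3% of all tested genes fell and 32.0% rose (63.3% in either direction). The median log2 fold change of the 40 was -0.80 (quartiles -0.995 and -0.60), beside 0.00 for all tested genes. At an unadjusted p under 0.05 the counts were again 38 and 0, and edgeR and DESeq2, run on the reads recovered from the CPM, each called 38 lower and 0 higher. Levels in the 3 shERK5 libraries lay below all 3 shCTRL libraries for 39 of the 40 genes, against 33.1% of all tested genes. A fall of at least 1 log2 unit was called for 10 of the 40 and for 2.25% of all tested genes.

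Summed over the 40 genes, the level was 6757, 5909 and 5885 CPM in shCTRL replicates 1, 2 and 3, 5482 and 5644 CPM in shMEK5 replicates 1 and 2, and 3800, 3554 and 3398 CPM in shERK5 replicates 1, 2 and 3. No shERK5 library reached the sum of any other library, and both shMEK5 libraries lay below the lowest shCTRL library. The mean sum in shERK5 was 58.0% of that in shCTRL, and in shMEK5 90.0%. Top2a and Anln, the members with the most reads, weigh heavily in these sums.

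**Figure D1:**
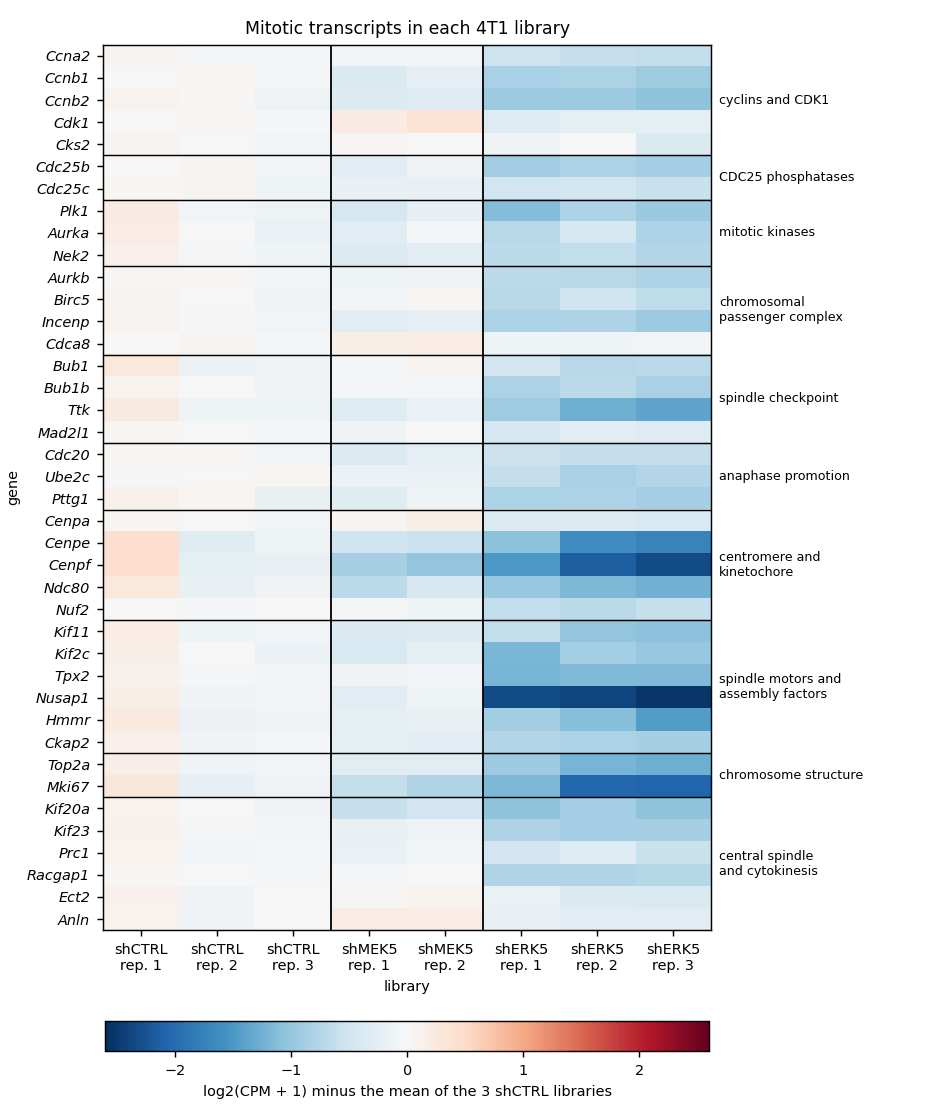
Each row is 1 of the 40 genes, grouped by function, and each column 1 library; colour gives log2(CPM + 1) minus the mean of the 3 shCTRL libraries (blue lower, red higher). The shERK5 columns are blue in 39 rows without overlap with shCTRL, with the darkest cells in Nusap1, Cenpf and Mki67, while the shMEK5 columns are pale, with Cdk1, Cdca8 and Anln among the few reddish rows.

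In shMEK5 the same genes moved less and mostly downward, with 33 of the 40 log2 fold changes below 0 and 7 above. Of the 40, 14 fell (35%) and 3 rose, beside 25.6% and 23.1% of all tested genes (48.7% in either direction). With edgeR on the recovered reads 10 of the 40 fell and 3 rose, beside 2730 and 2897 of all 11623 tested genes. No member fell by 1 log2 unit or more, which 1.08% of all tested genes did. The median log2 fold change was -0.19 (quartiles -0.32 and -0.06), beside -0.02 for all tested genes. The groups did not overlap in 27 genes that were lower and 4 that were higher in shMEK5, where 36.5% and 32.2% of all tested genes separated in these directions. The genes that fell were Ccnb1, Ccnb2, Cdc25b, Cdc25c, Plk1, Nek2, Incenp, Cdc20, Cenpf, Ndc80, Kif2c, Ckap2, Top2a and Kif20a, and those that rose were Cdk1, Cdca8 and Anln.

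Several calls in shMEK5 were lost when a single library was left out. Leaving out either shMEK5 library leaves 1 in that group, and a lost call there need not mean a changed log2 fold change. That of Cdc25c was -0.19 with all libraries, and -0.19 and -0.18 without shMEK5 replicates 1 and 2. For Top2a the values were -0.30, -0.30 and -0.29, and for Anln 0.19, 0.19 and 0.20. Others moved more, as Cdc25b did, from -0.19 to -0.09 without shMEK5 replicate 1. Under all 18 alternative settings 6 of the 17 calls were kept: the falls of Ccnb1, Ccnb2, Nek2, Cdc20 and Kif20a and the rise of Cdk1. Calls were also lost with all 8 libraries kept. Those of Cdc25b, Cdc25c, Plk1 and Top2a were lost with RLE or TMM scaling (limma adjusted p from 0.051 to 0.073) and with edgeR (adjusted p from 0.053 to 0.077). With no low-value filter these and Kif2c were lost (limma adjusted p from 0.055 to 0.086). DESeq2 lost Cdc25b and Cdc25c (adjusted p from 0.063 to 0.086). Without shMEK5 replicate 1, 6 genes fell and 1 rose, and the calls of Cdc25b, Cdc25c, Plk1, Incenp, Cdca8, Cenpf, Ndc80, Kif2c, Top2a and Anln were lost (limma adjusted p from 0.0597 to 0.402). Without shMEK5 replicate 2, 9 fell and 1 rose, and those of Cdc25c, Cdca8, Cenpf, Kif2c, Ckap2, Top2a and Anln were lost (adjusted p from 0.0559 to 0.161). Without shCTRL replicate 1, 8 fell and 3 rose, with Cdc25b, Cdc25c, Plk1, Cenpf, Kif2c and Top2a lost (adjusted p from 0.0645 to 0.121). Leaving out shCTRL replicate 2 ended the calls of Cdc25b, Cdc25c, Plk1, Kif2c and Anln (adjusted p from 0.0632 to 0.144), and shCTRL replicate 3 those of Cdca8 and Top2a (adjusted p from 0.0537 to 0.0743). Leaving out shERK5 replicate 2 ended the call of Top2a (adjusted p = 0.0572) and shERK5 replicate 3 those of Cdc25b and Plk1 (adjusted p from 0.0671 to 0.0694), through the shared estimate of the spread. Conversely, 7 of the 23 genes not called in shMEK5 fell under at least 1 setting (adjusted p from 0.00281 to 0.0491): Kif11 under 8 settings, Mki67 under 4, Ube2c, Pttg1, Cenpe and Kif23 under 2 each and Aurkb under 1.

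Between the knockdowns, 39 of the 40 genes were lower in shERK5 than in shMEK5 and 0 were higher, beside 17.4% and 22.0% of all tested genes. This is the test of the difference between the 2 knockdowns. At an unadjusted p under 0.05 it gave 39 lower and 0 higher, as did edgeR and DESeq2 on the recovered reads. The median log2 fold change was -0.59 (quartiles -0.71 and -0.48), and the libraries did not overlap in any of the 40 genes, all lower in shERK5, against 26.9% of all tested genes. A fall of at least 1 log2 unit was called for 4 of the 40 and for 1.23% of all tested genes. Cks2 was the gene that was not called (-0.19, SE 0.11, adjusted p = 0.198). The means ran in the order shCTRL, shMEK5, shERK5 for 34 genes and in the order shMEK5, shCTRL, shERK5 for Cdk1, Cks2, Cdca8, Cenpa, Ect2 and Anln. In 23 of the 40 genes shCTRL and shMEK5, the neighbours in that order, were not told apart by the test. The calls of Cenpe, Cenpf, Kif11 and Mki67 were lost without shMEK5 replicate 1 (adjusted p from 0.0717 to 0.122), and these with Aurka and Ndc80 without shMEK5 replicate 2 (0.0650 to 0.140). Those of Cenpe, Cenpf and Mki67 were lost without shERK5 replicate 2 (0.0607 to 0.0746), and of Aurka and Cenpe without shERK5 replicate 3 (0.0514 to 0.0565).

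**Figure D2:**
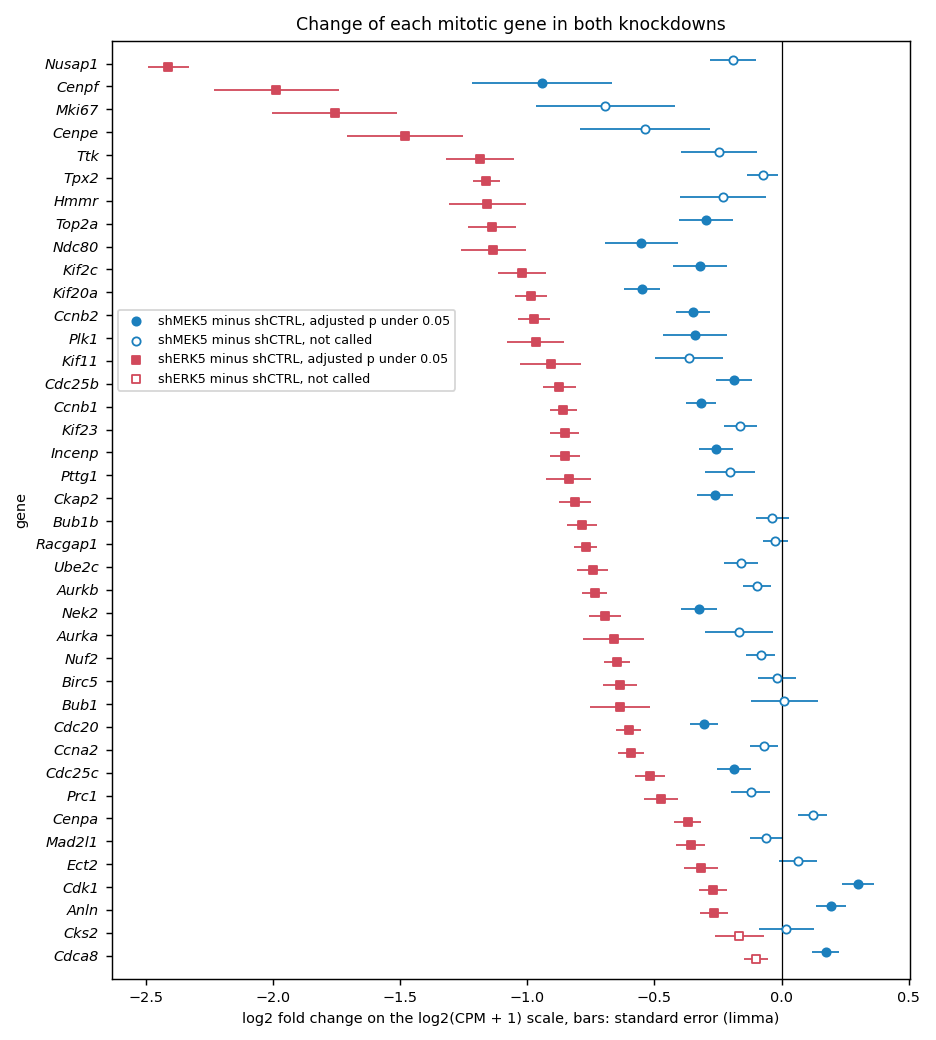
Log2 fold change of each gene against shCTRL, with its standard error from limma, for shMEK5 (blue circles) and shERK5 (red squares); filled symbols have an adjusted p under 0.05. Both comparisons share the 3 shCTRL libraries. All red squares lie left of 0 and only Cks2 and Cdca8 are open, while the blue circles lie between -0.94 and 0.30.

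Among the cyclins and their kinase, 4 of 5 genes fell in shERK5. Ccnb1 encodes cyclin B1, the CDK1 partner that sets off mitosis (Entrez Gene 268697; chromosome 13, 100778739 to 100786486, GRCm38). Its level was 105, 108 and 101 CPM in the shCTRL libraries, 79.9 and 87.5 CPM in shMEK5 and 58.1, 58.8 and 54.6 CPM in shERK5. The 3 groups were fully separated, at log2 differences of -0.32 (SE 0.06, adjusted p = 0.00146) in shMEK5 and -0.86 (SE 0.05, adjusted p = 5.57e-07) in shERK5. Ccnb2, cyclin B2, went down by nearly the same amounts, with log2 fold changes of -0.35 (SE 0.07) and -0.97 (SE 0.06). Ccna2, cyclin A2, which acts from S phase into early mitosis, fell in shERK5 by 0.59 on the log2 scale (SE 0.05) and stood at -0.07 (SE 0.06, adjusted p = 0.332) in shMEK5.

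Cdk1, the kinase itself, took another course than its cyclins (Entrez Gene 12534; chromosome 10, 69335146 to 69352912, GRCm38). It was at 228, 237 and 221 CPM in shCTRL, 267 and 298 CPM in shMEK5 and 181, 194 and 193 CPM in shERK5. Both shMEK5 libraries lay above all shCTRL libraries and all shERK5 libraries below them. The log2 fold change was 0.30 (SE 0.06, adjusted p = 0.00245) in shMEK5 and -0.27 (SE 0.05, adjusted p = 0.00156) in shERK5. Cks2, a small CDK-binding subunit and the member with the fewest reads, was at 9.47, 8.84 and 8.45 CPM in shCTRL, 9.08 and 9.003 CPM in shMEK5 and 8.19, 8.85 and 6.61 CPM in shERK5. Both knockdowns overlapped with shCTRL, while all 3 shERK5 libraries lay below both shMEK5 libraries. The log2 fold change of Cks2 against shCTRL was -0.17 (SE 0.10, adjusted p = 0.152) in shERK5. The phosphatase genes Cdc25b and Cdc25c, whose products remove the inhibitory phosphates from CDK1, fell in shERK5 by 0.87 (SE 0.06) and 0.52 (SE 0.06) on the log2 scale.

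The kinase genes Plk1, Aurka and Nek2 fell in shERK5. Plk1, polo-like kinase 1, which acts in centrosome maturation, mitotic entry and cytokinesis, was at 27.6, 22.6 and 21.7 CPM in shCTRL, 17.0 and 20.3 CPM in shMEK5 and 10.3, 13.2 and 11.8 CPM in shERK5. The shERK5 libraries were lowest without overlap, at 49.1% of the shCTRL mean (log2 fold change -0.97, SE 0.11, adjusted p = 5.23e-05). For Aurka, Aurora kinase A of the centrosome and spindle pole, the log2 difference was -0.66 (SE 0.12, adjusted p = 0.00146), and for Nek2, which separates the centrosomes, -0.69 (SE 0.06, adjusted p = 8.05e-06). In shMEK5 Nek2 fell too (-0.33, SE 0.07, adjusted p = 0.00389), while Aurka overlapped with shCTRL (-0.17, SE 0.13, adjusted p = 0.327).

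The chromosomal passenger complex corrects faulty attachments and joins Aurora kinase B to 3 partners, and its genes split. Aurkb fell from 98.2, 97.5 and 91.0 CPM in shCTRL to 58.9, 57.3 and 54.7 CPM in shERK5 (log2 fold change -0.74, SE 0.05, adjusted p = 1.03e-06). The gene for its scaffold, Incenp, fell by 0.85 (SE 0.06) and that for survivin, Birc5, by 0.64 (SE 0.07) on the log2 scale. Cdca8, encoding borealin, was at 54.8, 58.2 and 53.5 CPM in shCTRL, 61.6 and 63.7 CPM in shMEK5 and 51.2, 51.3 and 52.4 CPM in shERK5. The shERK5 libraries lay just below the shCTRL libraries, and the log2 difference, -0.10 (SE 0.05, adjusted p = 0.0927), was not called, unlike the rise of Cdca8 in shMEK5 (0.17, SE 0.05, adjusted p = 0.0231) and its fall from shMEK5 to shERK5 (-0.27, SE 0.05, adjusted p = 0.00268). The rise in shMEK5 was lost on leaving out either shMEK5 library (adjusted p = 0.0597 without replicate 1 and 0.146 without replicate 2) or shCTRL replicate 3 (adjusted p = 0.0743).

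Checkpoint genes fell in shERK5 and showed no call in shMEK5. Bub1b, encoding BUBR1, a part of the complex that inhibits CDC20, was at 223, 211 and 196 CPM in shCTRL, 203 and 206 CPM in shMEK5 and 118, 129 and 117 CPM in shERK5. The shMEK5 libraries lay within the shCTRL range and the shERK5 libraries far below it, at a log2 difference of -0.78 (SE 0.06, adjusted p = 2.07e-06) in shERK5 and -0.04 (SE 0.07, adjusted p = 0.674) in shMEK5. Ttk, the checkpoint kinase MPS1, fell furthest of the 4, to 42.5% of its shCTRL mean (-1.19, SE 0.13), and Mad2l1, encoding MAD2, least, to 77.7% (-0.36, SE 0.06). Bub1, a kinase that recruits checkpoint proteins to kinetochores, fell by 0.63 (SE 0.12) on the log2 scale. In shMEK5 limma called 0 of these 4 genes, with 0 at an unadjusted p under 0.05, and edgeR and DESeq2 called 0 as well.

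The 3 genes of anaphase onset fell together in shERK5. Cdc20 was at 123, 121 and 114 CPM in shCTRL, 92.6 and 100.0 CPM in shMEK5 and 80.3, 77.4 and 76.7 CPM in shERK5. Its groups were fully separated, at log2 differences of -0.31 (SE 0.06, adjusted p = 0.0014) in shMEK5 and -0.60 (SE 0.05, adjusted p = 4.19e-06) in shERK5. Ube2c, the ubiquitin-conjugating enzyme that works with the complex, and Pttg1, securin, which holds the cohesin-cutting protease in check, stood at 59.3% and 54.6% of their shCTRL means in shERK5. In shMEK5 neither passed the test (-0.16, SE 0.07, and -0.20, SE 0.10).

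Centromere and kinetochore genes held some of the largest falls. Cenpf, a large kinetochore and microtubule-binding protein, was at 121, 74.0 and 77.8 CPM in shCTRL, 48.5 and 42.9 CPM in shMEK5 and 30.6, 19.4 and 16.9 CPM in shERK5. The groups were separated, but replicate 1 stood well above the other 2 libraries both in shCTRL and in shERK5. The log2 fold change of Cenpf was -0.94 (SE 0.27, adjusted p = 0.0233) in shMEK5 and -1.99 (SE 0.25, adjusted p = 0.000239) in shERK5. The call in shMEK5 was lost when any 1 of 3 libraries was dropped: shMEK5 replicate 1 (limma adjusted p = 0.0731) or 2 (0.124), or shCTRL replicate 1 (0.0645). Cenpe, a kinetochore motor, had the same spread, at 98.3, 57.2 and 66.1 CPM in shCTRL and 33.9, 22.5 and 20.8 CPM in shERK5 (-1.48, SE 0.23, adjusted p = 0.000783). Ndc80 and Nuf2, which form the microtubule-binding arm of the kinetochore together, fell in shERK5 by 1.13 (SE 0.13) and 0.65 (SE 0.05) on the log2 scale. Cenpa, the histone variant that marks the centromere, had a smaller fall, with a log2 difference of -0.37 (SE 0.05, adjusted p = 0.000127).

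All 6 genes of spindle motors and assembly factors fell in shERK5, and Nusap1 had the greatest fall of the 40. Nusap1 encodes a microtubule-bundling protein of the spindle (Entrez Gene 108907; chromosome 2, 119618298 to 119650165, GRCm38). It was at 126, 107 and 107 CPM in shCTRL, 93.0 and 104 CPM in shMEK5 and 21.7, 20.9 and 18.6 CPM in shERK5. The shERK5 libraries were at 18.1% of the shCTRL mean, far from every other library (log2 fold change -2.41, SE 0.08, adjusted p = 3.83e-08), while shMEK5 was just below shCTRL (-0.19, SE 0.09, adjusted p = 0.103). The difference between the knockdowns was -2.22 (SE 0.09, adjusted p = 1.52e-07).

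Tpx2, which activates Aurora kinase A and nucleates spindle microtubules, had the next smallest adjusted p in shERK5. It was at 167, 150 and 148 CPM in shCTRL, 145 and 148 CPM in shMEK5 and 66.5, 69.6 and 69.4 CPM in shERK5. Again shMEK5 lay next to shCTRL (-0.08, SE 0.06, adjusted p = 0.319) and shERK5 at 44.3% of it (-1.16, SE 0.05, adjusted p = 1.48e-07). Hmmr, a spindle pole protein, fell by 1.16 (SE 0.15), Kif2c, a microtubule-depolymerising kinesin, by 1.02 (SE 0.09), Kif11, the kinesin that pushes spindle poles apart, by 0.91 (SE 0.12) and the microtubule-associated Ckap2 by 0.81 (SE 0.06) on the log2 scale.

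Both genes of chromosome structure fell in shERK5. Mki67 encodes Ki-67, the coat protein of mitotic chromosomes used in pathology as a marker of proliferation, and was at 272, 192 and 208 CPM in shCTRL, 145 and 129 CPM in shMEK5 and 98.0, 52.8 and 52.5 CPM in shERK5. The 3 groups did not overlap, and replicate 1 was again the highest in shCTRL and in shERK5. The log2 fold change was -1.76 (SE 0.24, adjusted p = 0.000467) in shERK5, and in shMEK5 -0.69 (SE 0.27, adjusted p = 0.0701), which was not called. Mki67 did fall in shMEK5 under 4 settings: with a minimum of 5 CPM (limma adjusted p = 0.0480), with only the 2 groups compared (0.00925), without shERK5 replicate 1 (0.00381) and with the replicate block (-0.79, adjusted p = 0.00689). Top2a, the topoisomerase that untangles sister chromatids, was at 1540, 1291 and 1299 CPM in shCTRL, 1120 and 1113 CPM in shMEK5 and 714, 592 and 569 CPM in shERK5 (-1.14, SE 0.09, adjusted p = 1.11e-05).

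The 6 genes of the central spindle and cytokinesis fell in shERK5 to different degrees. Kif20a, a kinesin of the central spindle, was at 124, 116 and 109 CPM in shCTRL, 76.02 and 82.6 CPM in shMEK5 and 56.1, 62.7 and 56.1 CPM in shERK5. It had the smallest adjusted p of the 40 in shMEK5 (log2 fold change -0.55, SE 0.07, adjusted p = 0.000146) and reached -0.99 (SE 0.06) in shERK5. Kif23 and Racgap1 encode the 2 partners of centralspindlin, the complex that bundles the central spindle. In shERK5 they fell by 0.85 (SE 0.06) and 0.77 (SE 0.04) on the log2 scale, and in shMEK5 neither passed the test (-0.16, SE 0.06, and -0.02, SE 0.05).

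Prc1, the bundler of antiparallel microtubules, fell in shERK5 by 0.47 (SE 0.07) and Ect2, which starts assembly of the contractile ring at the division plane, by 0.32 (SE 0.07) on the log2 scale. Anln, anillin of the contractile ring, was at 777, 685 and 738 CPM in shCTRL, 839 and 836 CPM in shMEK5 and 639, 596 and 593 CPM in shERK5. Like Cdk1, it lay above shCTRL in both shMEK5 libraries and below it in all 3 shERK5 libraries. The log2 fold change of Anln was 0.19 (SE 0.06, adjusted p = 0.0214) in shMEK5 and -0.27 (SE 0.05, adjusted p = 0.00145) in shERK5. The rise was not called once shMEK5 replicate 1 (limma adjusted p = 0.0926), its replicate 2 (0.0881) or shCTRL replicate 2 (0.0675) was left out.

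**Figure D3:**
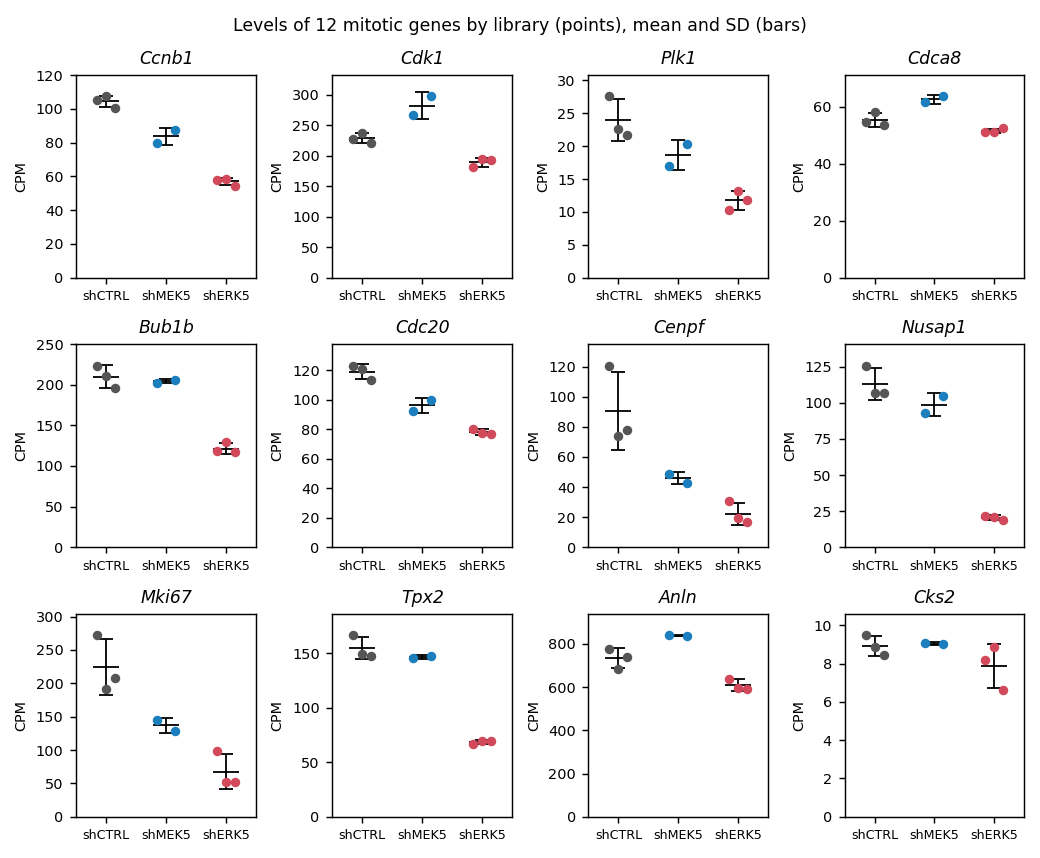
CPM of 12 of the genes in each library (points), with the mean and SD of each group (bars; n = 3, 2 and 3), on axes that start at 0. Nusap1 and Tpx2 are low in shERK5 and close to shCTRL in shMEK5, Ccnb1 and Cdc20 step down from shCTRL over shMEK5 to shERK5, Cdk1, Cdca8 and Anln are highest in shMEK5, and for Cks2 both knockdowns overlap with shCTRL.

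The spread within groups had a pattern of its own. In shCTRL, replicate 1 was the highest library for 33 of the 40 genes. It differed from the mean of the other shCTRL libraries by a median of 0.14 log2 units over the 40. Over all 11044 tested genes with a transcript length that median was 0.0077. In shERK5, replicate 1 was the highest for 19 of the 40, replicate 2 for 18 and replicate 3 for 3. In 18 genes, 45% of the 40, replicate 1 was the highest both in shCTRL and in shERK5. This was so for 1330 of the 11044 genes (12%). Those 18 were Ccna2, Ccnb2, Aurkb, Bub1, Ttk, Cdc20, Cenpe, Cenpf, Ndc80, Kif11, Nusap1, Hmmr, Ckap2, Top2a, Mki67, Kif23, Ect2 and Anln. Length of the longest coding transcript moved with part of this spread. Across the 40 genes, the Spearman correlation of length with the difference between replicate 1 and the other libraries was 0.38 in shCTRL and 0.27 in shERK5. Across all tested genes it was 0.16 and 0.20. This was not particular to replicate 1. For replicate 2 the values were -0.56 and -0.31 over the 40, and -0.36 and -0.22 over all tested genes. For replicate 3 they were 0.04 and -0.24 over the 40, and 0.18 and -0.07 over all tested genes. The same coefficient for length and the log2 fold change in shERK5 was -0.34 over the 40 and -0.18 over all tested genes, so longer transcripts were lower in shERK5. The 10 members of 4000 bases or more had a median log2 fold change of -1.02 in shERK5, and the 30 shorter members one of -0.78. All tested genes of the same length classes had medians of -0.09 and 0.05. Genes are not independent replicates, and the part of length in these results was not tested. Without shCTRL replicate 1 or shERK5 replicate 1, 38 of the 40 genes still fell in shERK5.

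Some values carry an uncertainty of counting, since the sources used here do not say how reads of shared sequence or of either strand were assigned. Ccnb1 has 3 processed pseudogenes that match over 1287 to 1294 bases of its 2489-base transcript at 97.3% identity or more in GENCODE. Shorter matches of at least 300 bases to a pseudogene or transcript elsewhere were found for Mad2l1, Ndc80 and Racgap1. Exons of Kif20a overlap those of Cdc23 on the opposite strand over 29.3% of the exonic bases, and those of Ube2c and Cdc25c overlap Tnnc2 and Gm3550, also on the opposite strand, over 22.8% and 12.7%. Tnnc2, at a mean of 0.0522 CPM in shCTRL, did not pass the filter. Those of Ccna2 and Prc1 overlap Exosc9 and Rccd1 over 12.5% and 11.1%, and 6 further genes overlap a gene on the opposite strand over smaller shares. In shERK5 Cdc23 fell by 0.19 (SE 0.05) on the log2 scale, far less than Kif20a. Oip5, which overlaps Nusap1 over 4.2%, fell by 0.31 (SE 0.05). Exosc9 and Rccd1 rose, with log2 fold changes of 0.23 (SE 0.05) and 0.25 (SE 0.08), against the falls of Ccna2 and Prc1. The part of these overlaps in the results was not tested. None of the 40 genes had counts identical to those of another gene across the libraries.

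Genes transcribed late in the cell cycle often share 2 promoter elements: the cell cycle genes homology region (CHR), bound by the MuvB complex, and CCAAT boxes, bound by NF-Y. RefSeq start sites of GRCm38.p6 were at hand for 34 of the 40 genes. The windows from 250 bases before to 50 bases after the start were searched for CHR as TTTGAA or TTTAAA and for CCAAT, on both strands, so that TTCAAA and ATTGG also count. Below are the 130 bases before and 30 bases after the start for 8 genes, 5′ to 3′ on the strand of the gene, with the matches in capitals. The first 6 fell in shERK5 and hold both elements, Nusap1 fell most and holds neither, and Cks2, which was not called, holds CCAAT boxes but no CHR match.
Ccnb1 (chr13:100786457-100786616, minus strand): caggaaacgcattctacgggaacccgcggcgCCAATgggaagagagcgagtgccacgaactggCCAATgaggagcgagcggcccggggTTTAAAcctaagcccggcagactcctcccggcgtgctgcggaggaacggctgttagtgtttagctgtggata
Ccnb2 (chr9:70421525-70421684, minus strand): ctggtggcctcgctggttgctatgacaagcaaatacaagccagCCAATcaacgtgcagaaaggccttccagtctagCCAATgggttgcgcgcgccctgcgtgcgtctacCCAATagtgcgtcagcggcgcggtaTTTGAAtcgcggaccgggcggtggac
Cdk1 (chr10:69352883-69353042, minus strand): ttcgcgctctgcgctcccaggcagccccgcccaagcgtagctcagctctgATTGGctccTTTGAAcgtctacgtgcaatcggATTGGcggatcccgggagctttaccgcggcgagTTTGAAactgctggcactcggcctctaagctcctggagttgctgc
Cdc20 (chr4:118437314-118437473, minus strand): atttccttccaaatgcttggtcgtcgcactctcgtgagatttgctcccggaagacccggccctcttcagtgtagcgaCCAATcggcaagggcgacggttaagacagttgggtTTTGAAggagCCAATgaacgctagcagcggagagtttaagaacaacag
Ube2c (chr2:164769799-164769958, plus strand): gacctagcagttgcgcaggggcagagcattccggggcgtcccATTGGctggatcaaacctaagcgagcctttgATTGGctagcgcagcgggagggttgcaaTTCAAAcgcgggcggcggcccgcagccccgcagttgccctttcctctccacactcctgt
Top2a (chr11:99024160-99024319, minus strand): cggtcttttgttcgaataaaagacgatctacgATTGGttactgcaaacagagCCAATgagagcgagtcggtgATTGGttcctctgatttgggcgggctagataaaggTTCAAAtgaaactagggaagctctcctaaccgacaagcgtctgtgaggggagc
Nusap1 (chr2:119618168-119618327, plus strand): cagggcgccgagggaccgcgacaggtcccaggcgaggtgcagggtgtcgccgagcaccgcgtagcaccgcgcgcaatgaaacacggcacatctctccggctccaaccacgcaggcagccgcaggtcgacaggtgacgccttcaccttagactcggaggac
Cks2 (chr13:51645102-51645261, plus strand): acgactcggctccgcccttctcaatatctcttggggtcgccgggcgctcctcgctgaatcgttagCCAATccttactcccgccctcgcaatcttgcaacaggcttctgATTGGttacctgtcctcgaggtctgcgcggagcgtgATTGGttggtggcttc

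In the whole windows, CHR letters were found in 28 of 36 member windows (77.8%; Ect2 and Prc1 have 2 windows each), beside 27.6% of all 32851 promoter windows of the table and 19.2% of those of tested genes. CCAAT was found in 77.8% of member windows, beside 37.4% and 38.5%, and both elements in 66.7%, beside 10.7% and 7.69%. Within 50 bases of the start, CHR letters lay in 24 of the 36 member windows (66.7%) and in 8.28% of all windows. By gene, 26 of 34 held CHR letters, 26 held CCAAT and 22 held both, and Mad2l1, Nuf2, Nusap1 and Pttg1 held neither. Not every start was the outermost one of its gene. The Pttg1 window (43425932 to 43426231, minus strand) lies inside the gene, which runs to 43427463. That of Kif2c, counted with CHR letters (117178723 to 117179022, minus strand), lies inside a gene that runs to 117182624. The Cdc25b window (131186698 to 131186997, plus strand) lies inside a gene that begins at 131186436. Those of Aurka (172370521 to 172370820, minus strand) and Ect2 (27153805 to 27154128 in all, minus strand) lie inside genes that run to 172370886 and 27154253. The median log2 fold change in shERK5 was -0.83 for the 26 genes with CHR letters, of which 25 fell, and -0.67 for the 8 without, of which 7 fell. The ranges, -1.99 to -0.10 and -2.41 to -0.17, overlapped over most of their length, and this split of the genes was not tested. A match of letters is not evidence that a factor binds there.

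**Figure D4:**
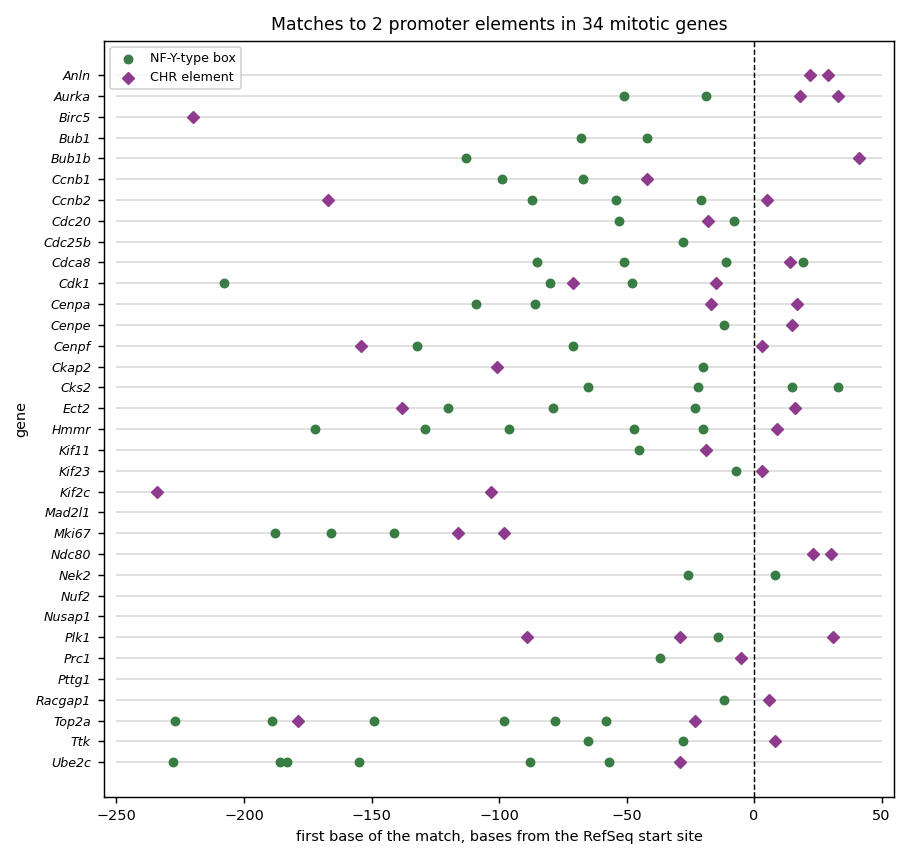
Position of each match to CHR (purple diamonds) and CCAAT (green circles, labelled NF-Y-type box) in 34 genes, in bases from the RefSeq start site (dashed line), with the searched window in grey; the first window is drawn for Ect2 and Prc1. The diamonds gather around the start site, 27 of 39 within 50 bases of it, and 48 of 62 circles lie in the 150 bases before it.

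Other genes of mitosis that are not among the 40 moved the same way in shERK5, to an extent that depended on the group. The counts below stand beside the 31.3% of all tested genes that fell and 32.0% that rose in shERK5. Of 37 other spindle, centrosome and midbody genes, 33 fell (89.2%) and 0 rose (median log2 fold change -0.73; 33 and 0 at an unadjusted p under 0.05 and by edgeR and DESeq2). Among them were Cep55, which acts in the final cut between daughter cells (-0.97, SE 0.05), the spindle protein gene Tacc3 (-0.78, SE 0.05), the chromokinesin gene Kif4 (-0.87, SE 0.06) and the centrosome gene Cep192 (-0.96, SE 0.07). Of 19 condensin and cohesin genes, which fold and hold chromosomes, 17 fell (89.5%) and 0 rose (median -0.71), with the same counts at an unadjusted p under 0.05 and by edgeR and DESeq2. Smc1a, a cohesin core subunit, had -1.03 (SE 0.09), Ncapd2, a condensin subunit, -0.77 (SE 0.05), its relative Ncapd3 -0.45 (SE 0.05) and Cdca5, sororin, -0.63 (SE 0.07). Of 35 other kinetochore and centromere genes, 26 fell (74.3%) and 3 rose (median -0.39). Sgo1, shugoshin, which protects centromeric cohesion, fell by 1.38 (SE 0.10) and Dsn1 of the kinetochore base by 0.90 (SE 0.05) on the log2 scale. Cenph fell by 0.68 (SE 0.07) and Hjurp, the chaperone that loads CENP-A, by 0.63 (SE 0.04). In shMEK5, Tacc3, Kif4, Cep192, Ncapd2, Ncapd3, Sgo1 and Cenph also fell, Ncapd3 with a log2 fold change of -0.46 (SE 0.05). Cep55, Smc1a, Cdca5, Dsn1 and Hjurp were not called there.

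Genes of the anaphase-promoting complex itself moved in both directions. Of 17 genes for its subunits and regulators, 6 fell (35.3%) and 3 rose (17.6%) in shERK5, with a median of -0.04, near that of all tested genes. Fbxo5, its inhibitor EMI1, fell by 1.11 (SE 0.07), the subunit genes Anapc5 and Anapc4 by 0.78 (SE 0.07) and 0.57 (SE 0.04), and Fzr1, the activator that replaces CDC20 late in mitosis, by 0.30 (SE 0.05) on the log2 scale. Of 16 genes of G2 entry and CDK1 control, 10 fell (62.5%) and 3 rose (median -0.26). Mastl, the Greatwall kinase that keeps CDK1 substrates phosphorylated, fell by 1.26 (SE 0.13) and the kinase gene Melk by 0.61 (SE 0.08). Cdc25a, a phosphatase acting on CDK2 and CDK1, and Arpp19, a Greatwall substrate, rose, with log2 fold changes of 0.39 (SE 0.05) and 0.34 (SE 0.04). In shMEK5, Fbxo5, Anapc5, Anapc4, Mastl and Melk also fell (log2 fold changes -0.40, -0.40, -0.41, -0.67 and -0.39). Cdc25a and Arpp19 also rose there (0.31 and 0.24), and Fzr1 was not called (-0.04).

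Of 23 genes for MuvB, MYB, FOXM1, E2F and NF-Y regulators, 10 fell (43.5%) and 4 rose (17.4%) in shERK5 (median -0.17), beside 31.3% and 32.0% of all tested genes. In shMEK5, 4 fell (17.4%) and 9 rose (39.1%, median 0.17), beside 25.6% and 23.1%. Foxm1, which activates many G2/M genes, was at 37.1 ± 3.87 CPM (SD, n = 3) in shCTRL, 36.8 ± 0.921 CPM (SD, n = 2) in shMEK5 and 23.1 ± 1.24 CPM (SD, n = 3) in shERK5 (log2 fold change -0.66, SE 0.08, adjusted p = 3.47e-05 in shERK5). Mybl2, encoding B-MYB, the partner of MuvB, was at 16.8 ± 0.885 CPM (SD, n = 3), 25.6 ± 2.29 CPM (SD, n = 2) and 14.8 ± 1.93 CPM (SD, n = 3). It rose in shMEK5 (0.58, SE 0.10, adjusted p = 0.00105), was not called in shERK5 (-0.18, SE 0.09, adjusted p = 0.112) and was lower in shERK5 than in shMEK5 (-0.76, SE 0.10, adjusted p = 0.000257). Lin9, a MuvB subunit, fell slightly in shERK5 (-0.18, SE 0.06, adjusted p = 0.0176). Tfdp2, an E2F partner, fell in both knockdowns, with log2 fold changes of -1.08 (SE 0.10) and -1.55 (SE 0.09), Tfdp1, its relative, rose in both (0.25, SE 0.05, and 0.29, SE 0.04), and E2f4, the E2F of the repressing DREAM complex, rose in shERK5 (0.61, SE 0.09).

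For comparison, 18 of 33 S phase genes fell (54.5%) and 6 rose (18.2%) in shERK5, with a median of -0.20. In shMEK5, 5 fell (15.2%) and 12 rose (36.4%), with a median of 0.10, beside 25.6% and 23.1% of all tested genes. The replication genes Mcm7 (-0.91, SE 0.06), Gins4 (-0.80, SE 0.07), Gins2 (-0.81, SE 0.10) and Pcna (-0.35, SE 0.04) fell in shERK5. Mcm7, Gins4 and Gins2 also fell in shMEK5 (-0.27, -0.63 and -0.56), where Pcna was not called (0.02). The difference between the S phase and mitotic lists was not tested. In shMEK5 the other lists of mitotic genes held 13 of 37 (spindle, 0 rose), 14 of 35 (kinetochore, 4 rose), 4 of 19 (condensin and cohesin, 1 rose), 6 of 17 (anaphase-promoting complex, 1 rose) and 5 of 16 (G2 entry, 6 rose) that fell. Those shares of falls were 35.1%, 40%, 21.1%, 35.3% and 31.2%, beside 25.6% of all tested genes. In the spindle list 1 gene was higher in shMEK5 at an unadjusted p under 0.05, edgeR called 1 higher and DESeq2 called 0.

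**Figure D5:**
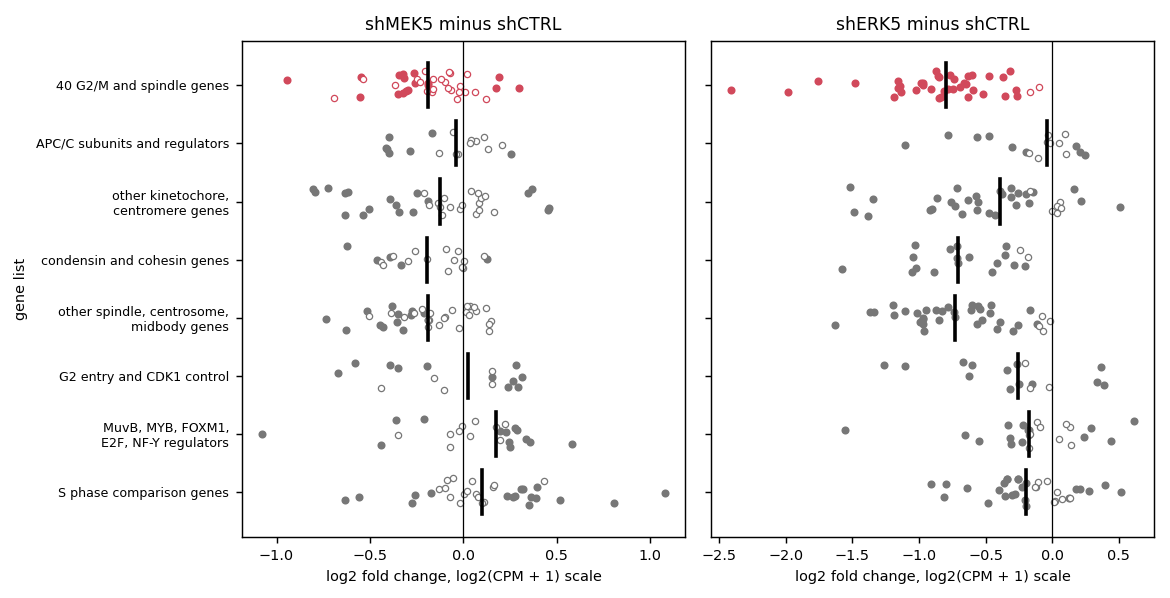
Log2 fold change of every gene in the 40 (red) and in 7 other fixed lists (grey) for shMEK5 (left) and shERK5 (right) against shCTRL; filled points have an adjusted p under 0.05, open points do not, and black bars are medians. The axes of the panels differ in range. In shERK5 the medians of the 40 genes, of the spindle list and of the condensin and cohesin list are -0.80, -0.73 and -0.71, and that of the anaphase-promoting complex is -0.04.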

How the data were processed

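RNA from 8 libraries of 4T1 cells had been depleted of ribosomal RNA and made into stranded total RNA libraries, per the labels' protocols. The submitters' processing notes name STAR and mm10; which annotation and counter were used, and whether counting used strand, was not given in the sources used here. CPM for 24454 Entrez Gene numbers were deposited by the authors. The count behind each deposited value could be recovered, since 100% came out as whole reads (tolerance 0.01 read). On these counts edgeR called 5627 genes for shMEK5 and 7351 for shERK5 (each against shCTRL), and 4452 for shERK5 against shMEK5. Intervals from reads would cover counting error only. Symbols and coordinates came from RefSeq (GRCm38.p6).

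Genes at 1 CPM or more in at least 2 libraries (11623) were fitted with limma 3.58.1 in R 4.3.3 on log2(CPM + 1), all 8 libraries and a mean per group, with trend, robust moderation and Benjamini-Hochberg adjustment. The fit was also run on simulated counts, drawn independently with the same dispersion for every gene. Such counts lack the length-related differences between replicates seen here, so they do not test the calls of these libraries. No replicate pair agreed within sampling noise (chi-square per degree of freedom 8.23 to 42.6). The named genes are the 40 members, up to 4 genes per other list with the smallest adjusted p in shERK5, Foxm1, Mybl2 and Lin9, and the 2 hairpin targets. Members and lists were chosen with earlier results of these data known. Alternatives (edgeR 4.0.16, DESeq2 1.42.0, other scalings, filters, pseudocounts, a replicate block, leaving out each library) are given under the closing section. A planned search for protein motifs was not run, and 1 marker gene is not reported here.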

Additional observations from a re-analysis of the deposited data

How the results depend on the processing

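Under 18 alternative settings, 38 of the 40 genes fell and 0 rose in shERK5 against shCTRL in every one, with medians between -0.84 and -0.76. Against shMEK5, 33 to 39 fell and 0 rose on leaving out single libraries (medians -0.64 to -0.57), and 39 fell under the other settings. In shMEK5 against shCTRL, leaving out single libraries gave 6 to 17 genes that fell, 1 to 3 that rose and 7 to 20 called in all, with medians of -0.25 to -0.12. The low-value filter mattered too: with no filter 9 fell and 3 rose. Both TMM and RLE scaling gave 10 that fell and 3 that rose, as did edgeR, and DESeq2 gave 13 and 3. Of all 11623 tested genes, edgeR called 2730 lower and 2897 higher in shMEK5, and DESeq2 2740 and 2811. In the other mitotic and regulator lists, 67 of 147 genes were called in shMEK5 (41 to 75 on leaving out a library), 115 in shERK5 (108 to 114) and 87 between the knockdowns (60 to 99). Of all 11623 tested genes, 48.7% were called in shMEK5, which the lists did not exceed, 63.3% in shERK5 and 39.4% between the knockdowns. By direction, 31.3% of the 147 fell and 14.3% rose in shMEK5, beside 25.6% and 23.1% of all tested genes. In shERK5 69.4% fell and 8.84% rose, beside 31.3% and 32.0%. Between the knockdowns 55.8% were lower in shERK5 and 3.4% higher, beside 17.4% and 22.0%. Same-numbered libraries had correlated deviations of -0.06, -0.19 and 0.17 between shCTRL and shERK5, -0.13 and 0.03 between shCTRL and shMEK5, and 0.46 and 0.52 between shMEK5 and shERK5. Not every pair was above 0.1, so the numbers were not taken to pair the libraries. The deviations of the 2 shMEK5 libraries from their mean mirror each other, so their values are not independent. Differently numbered libraries reached 0.40 (shCTRL replicate 1 with shERK5 replicate 2) and 0.39 (shCTRL replicate 2 with shERK5 replicate 3). With the replicate block 19 members fell and 3 rose in shMEK5, 38 fell in shERK5, and 39 were lower in shERK5 than in shMEK5.

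Signs turned only for 4 genes near 0 in shMEK5, none of them called under any of the 18 settings. Birc5 (-0.017) became 0.0012 with RLE, 0.0043 with TMM, 0.0038 with edgeR and 0.0007 with DESeq2. With the replicate block Bub1 (0.0099) became -0.0373 and Cks2 (0.0188) -0.052. Leaving out single libraries gave -0.071 to 0.0369 for Birc5, -0.0649 to 0.1441 for Bub1, -0.0851 to 0.0094 for Bub1b (-0.0359) and -0.0156 to 0.0584 for Cks2. The cause of these changes was not tested.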
